A study of Mus musculus with 6 samples.

Results

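The adventitia is the outer coat of the aorta, and its main resident cells are fibroblasts. A set of 10 genes that are widely used as markers of these cells was described: Pdgfra, Dpt, Pi16, Gsn, Clec3b, Serpinf1, Tcf21, Scara5, Cd34 and Dpep1. They were taken by NCBI gene number from a table of 21117 genes, and all 10 were in the table. Expression was measured by sequencing of poly(A) RNA from mouse aortic tissue in 3 Fbn1C1041G/+ samples and 3 wild-type (WT) samples. The mutant samples carry 1 copy of a missense allele of the gene for fibrillin-1, the main protein of microfibrils, and serve as a model of Marfan syndrome, in which the aorta dilates. All 6 samples came from mice aged 32 weeks and were labelled untreated. The comparison asked how mutant and WT aorta differ in gene expression.

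Adventitial fibroblasts make the collagen-rich outer coat of the vessel and lie next to fat, nerves and small vessels. Single-cell studies in mice describe resting fibroblasts that carry Pdgfra in most tissues, and among them a progenitor-like kind with high Pi16, Dpp4 and Cd34 that sits around large vessels. When fibroblasts are activated, other genes such as Postn and Cthrc1 are known to come up. In whole tissue, a change in the number of fibroblasts and a change in RNA per fibroblast cannot be told apart, and none of the 10 genes is made by fibroblasts alone.

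Of the 10 markers, 1 passed the test and 9 did not. Tcf21, which encodes a transcription factor, was higher in Fbn1C1041G/+ aorta, and no marker was lower. A marker passed where the adjusted p of limma, fitted on log2(FPKM + 1) of all 13438 tested genes with Benjamini-Hochberg adjustment, was under 0.05. FPKM counts fragments by transcript length, in kilobases, and by the mapped fragments of each library. Over all genes tested, 5.60% passed in either direction, 0.744% were higher and 4.85% were lower, and the share among the markers, 1 of 10, is given beside these without a test of its own. The log2 fold change, Fbn1C1041G/+ minus WT, was positive in 8 markers and negative in 2, with a median of 0.28. The median over all tested genes was -0.0036, with 49.2% positive. Whether each library of a group is a different mouse is not stated in the labels, so the p-values describe the spread among these 6 libraries, which may be technical. With 3 libraries a group, an exact permutation test (2-sided) has 0.1 as its smallest p, and none was used for single genes.

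The steps between low FPKM values put the depth at about 29.2 to 34.7 fragments per FPKM for a transcript of 2 kb in Fbn1C1041G/+ libraries and 28.3 to 34.1 in WT libraries. Fbn1 itself had 21.8 to 28.6 FPKM in Fbn1C1041G/+ and 16.9 to 22.2 FPKM in WT libraries, and FPKM per gene cannot show a missense allele. The 6 smooth muscle markers, Acta2 the most abundant, summed to 9159 FPKM or more in every library, which is the makeup of the labelled tissue. WT replicate 3 stood apart from the other WT libraries. Its weight in a fit that weights libraries by their residual spread was 0.333, against 1.53 and 2.41 in the other WT libraries, and Fbn1C1041G/+ replicate 1 had the lowest mutant weight, at 0.457. Across genes, the deviation of WT replicate 3 from the gene means correlated with transcript GC content at -0.30, against 0.20 and 0.24 in WT replicates 1 and 2. In Fbn1C1041G/+ replicates 1 to 3 this correlation was 0.19, -0.12 and -0.14. WT replicate 3 thus shared its sign with mutant replicates 2 and 3, and mutant replicate 1 with WT replicates 1 and 2.

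**Figure D1:**
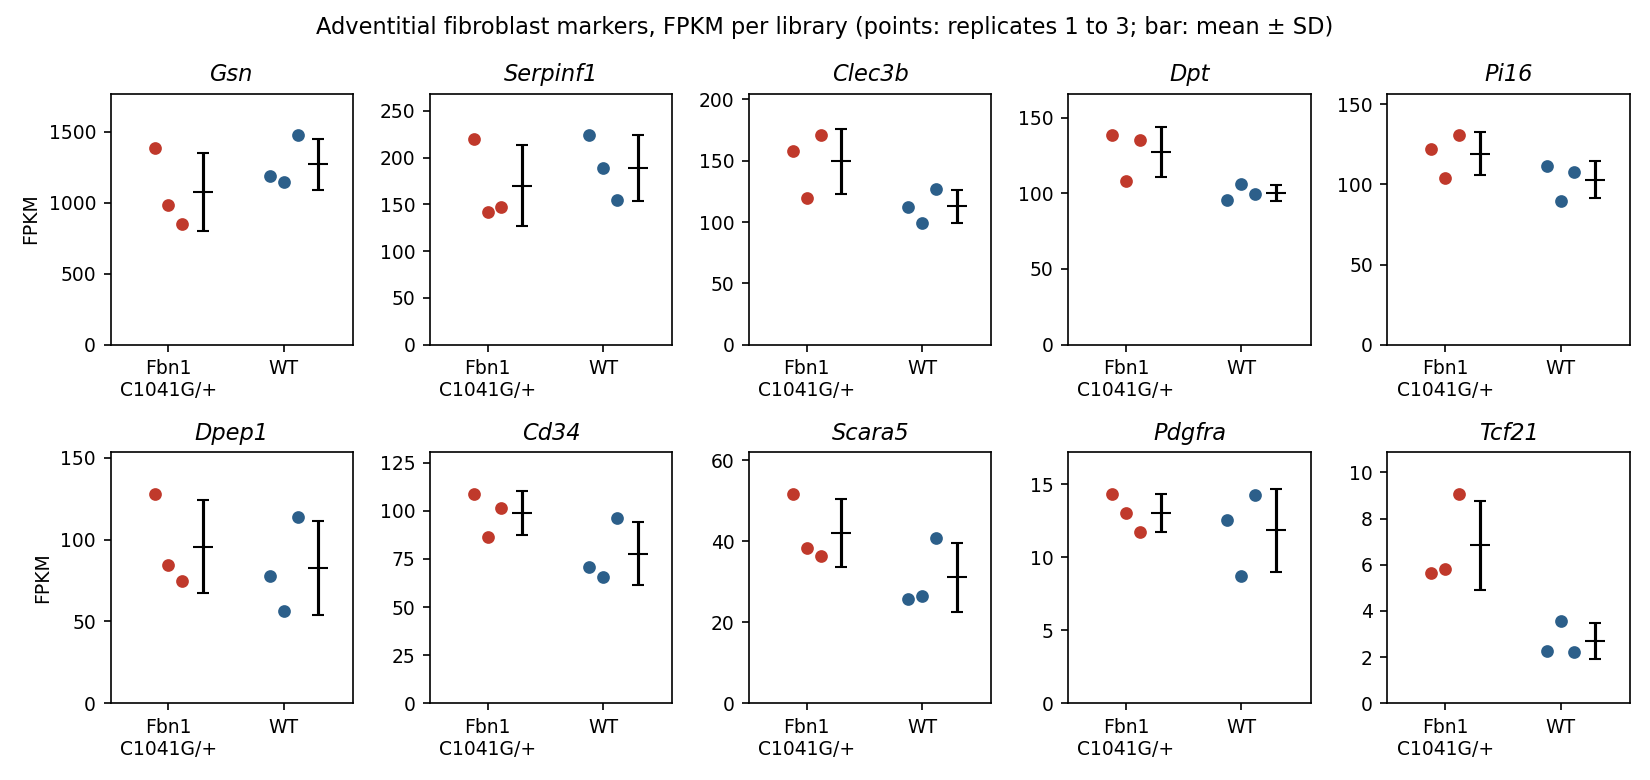
FPKM of each marker in each library (points, replicates 1 to 3 from left to right) with the group mean and SD (black), on axes that start at 0 and differ between genes. The groups are apart for Tcf21, narrowly apart for Dpt, at 108 against 106 FPKM for the closest pair, and overlap for the other 8 markers.

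Tcf21 (NCBI gene 21412) encodes a basic helix-loop-helix transcription factor of mesenchymal cells, known from the epicardium of the heart, from cardiac fibroblasts and from coronary vessels. It had 5.62, 5.81 and 9.07 FPKM in Fbn1C1041G/+ replicates 1 to 3, against 2.27, 3.58 and 2.23 FPKM in WT replicates 1 to 3. All mutant libraries lay above all WT libraries, and replicate 3 was the highest mutant library. The means were 6.83 ± 1.94 FPKM in Fbn1C1041G/+ and 2.69 ± 0.768 FPKM in WT (SD, n = 3 each), a ratio of 2.54. On the log2(FPKM + 1) scale, which understates the change of low genes, the difference was 1.08 ± 0.23 (SE; 95% interval 0.54 to 1.61; limma adjusted p = 0.0391). Tcf21 was the least abundant marker, with 54.8% of all genes in the table below it.

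The call on Tcf21 sat close to the threshold. The difference stayed at 0.88 to 1.24 on the log2 scale when any library was left out, but the adjusted p of limma then ran from 0.0481 to 0.146, and it was under 0.05 only without WT replicate 2. Without Fbn1C1041G/+ replicates 1, 2 and 3 it was 0.0772, 0.0735 and 0.118, and without WT replicates 1 and 3 it was 0.146 and 0.0777. With no filter on low genes it was 0.0755.

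Marker sums of 2 other tissues near the aorta were also higher in the mutant libraries. The 6 heart muscle markers, which include Myh6 and Tnni3, summed to 158, 105 and 390 FPKM in Fbn1C1041G/+ replicates 1 to 3 and to 25.7, 28.5 and 12.9 FPKM in WT replicates 1 to 3. Fbn1C1041G/+ replicate 3, the library with the most Tcf21, also had the highest heart muscle sum, while the other mutant libraries were close in Tcf21 and differed in heart muscle sum. The 6 markers of mesothelium, the cell layer that lines body cavities, summed to 8.56, 25.8 and 19.1 FPKM in Fbn1C1041G/+ replicates 1 to 3, against 2.10, 8.54 and 3.88 FPKM in WT replicates 1 to 3. The highest mesothelium sum was in mutant replicate 2, where Krt19 had 15.4 FPKM and Upk1b 7.46 FPKM. Msln, Upk3b and Lrrn4 were highest in mutant replicate 3, at 4.51, 6.91 and 1.25 FPKM, and Wt1 in mutant replicate 1, at 1.48 FPKM. In WT, replicate 2 had the most Tcf21 and also the highest sum of both lists. Sums of T and B cell and of macrophage markers were higher in the mutant libraries too. The T and B cell sum was highest in mutant replicate 3, at 63.9 FPKM, and in WT replicate 1, at 8.31 FPKM. The macrophage sum was highest in mutant replicate 1, at 799 FPKM, and in WT replicate 3, at 281 FPKM. The part of these tissues and cells in the Tcf21 difference was not tested.

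None of the surface markers Pdgfra, Cd34, Scara5 and Dpep1 passed the test. Pdgfra (NCBI gene 18595), the receptor for platelet-derived growth factor that marks fibroblasts in most organs, had 14.4, 13.02 and 11.7 FPKM in Fbn1C1041G/+ replicates 1 to 3. WT replicates 1 to 3 had 12.5, 8.72 and 14.3 FPKM. The mutant values lay inside the spread of WT apart from replicate 1, which was narrowly above the highest WT value, and the log2 difference was 0.15 ± 0.20 (SE; limma adjusted p = 0.856). Its sign turned to -0.039 without WT replicate 2.

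Cd34 (NCBI gene 12490) encodes a sialomucin of progenitor-like fibroblasts that endothelial cells also carry. It had 109, 86.6 and 101 FPKM in Fbn1C1041G/+ replicates 1 to 3, against 71.1, 65.9 and 96.5 FPKM in WT replicates 1 to 3. WT replicate 3 lay above the lowest mutant library, whereas the other WT libraries lay below all mutant ones. The log2 difference was 0.36 ± 0.19 (SE; 95% interval -0.09 to 0.80; limma adjusted p = 0.479). The endothelial markers, such as Pecam1, summed to 345 to 428 FPKM in Fbn1C1041G/+ and to 333 to 499 FPKM in WT libraries.

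Scara5 (NCBI gene 71145), a scavenger receptor that takes up ferritin, had 51.7, 38.3 and 36.3 FPKM in Fbn1C1041G/+ replicates 1 to 3 and 25.8, 26.5 and 40.8 FPKM in WT replicates 1 to 3. WT replicate 3 again overlapped with the mutant libraries, and the other WT libraries lay below them. The mean ratio of 1.36 was the second highest of the 10 markers, with a log2 difference of 0.44 ± 0.23 (SE; limma adjusted p = 0.465).

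Dpep1 (NCBI gene 13479), a membrane dipeptidase that also cleaves a leukotriene, was the most scattered surface marker. It had 128, 84.3 and 74.6 FPKM in Fbn1C1041G/+ replicates 1 to 3, against 77.6, 56.6 and 114 FPKM in WT replicates 1 to 3. The groups overlapped widely, and the log2 difference was 0.23 ± 0.30 (SE; limma adjusted p = 0.858), the largest SE of the 10. It turned to -0.00053 without Fbn1C1041G/+ replicate 1 and to -0.013 without WT replicate 2.

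Dpt, Clec3b and Pi16 had higher means in mutant aorta and Serpinf1 a lower one, and none of them passed the test. Dpt (NCBI gene 56429) encodes dermatopontin, a matrix protein that binds decorin and collagen fibrils. It had 138, 108 and 135 FPKM in Fbn1C1041G/+ replicates 1 to 3, against 95.5, 106 and 99.3 FPKM in WT replicates 1 to 3. Dpt and Tcf21 were the 2 markers whose groups did not overlap, both with the mutant libraries above. Over all tested genes, 20.0% had groups that did not overlap, 6.85% with all mutant values above WT and 13.1% with all below. The Dpt means were 127 ± 16.6 FPKM in Fbn1C1041G/+ and 100.3 ± 5.35 FPKM in WT (SD, n = 3 each), with a log2 difference of 0.33 ± 0.15 (SE; 95% interval -0.02 to 0.69; limma adjusted p = 0.374).

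Clec3b (NCBI gene 21922) encodes tetranectin, a secreted lectin-like protein that binds plasminogen. It had 158, 119.8 and 171 FPKM in Fbn1C1041G/+ replicates 1 to 3, against 112, 99.1 and 127 FPKM in WT replicates 1 to 3. The lowest mutant library, replicate 2, fell between WT values, and the other mutant libraries lay above WT. The ratio of means was 1.33 and the log2 difference was 0.40 ± 0.18 (SE; limma adjusted p = 0.387).

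Pi16 (NCBI gene 74116), a peptidase inhibitor that marks the progenitor-like fibroblasts around large vessels, had 122, 104 and 131 FPKM in Fbn1C1041G/+ replicates 1 to 3. WT replicates 1 to 3 had 111, 89.8 and 108 FPKM. The mutant values overlapped with those of WT through replicate 2, and the log2 difference was 0.21 ± 0.16 (SE; 95% interval -0.16 to 0.58; limma adjusted p = 0.706).

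Serpinf1 (NCBI gene 20317) encodes pigment epithelium-derived factor, a serpin that restrains vessel growth. It had 219.7, 142 and 147 FPKM in Fbn1C1041G/+ replicates 1 to 3, against 224, 189 and 154 FPKM in WT replicates 1 to 3. Fbn1C1041G/+ replicate 1 was close to the highest WT library and the other mutant libraries lay below all of WT. The log2 difference was -0.17 ± 0.23 (SE; limma adjusted p = 0.862).

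Gsn (NCBI gene 227753) encodes gelsolin, which severs actin filaments inside cells and is also secreted, and which smooth muscle makes too. It was the most abundant marker, with 1381, 985 and 853 FPKM in Fbn1C1041G/+ replicates 1 to 3 and 1186, 1146 and 1473 FPKM in WT replicates 1 to 3. Mutant replicates 2 and 3 were below every WT library, and mutant replicate 1 was inside the WT range. The means were 1073 ± 275 FPKM in Fbn1C1041G/+ and 1268 ± 178 FPKM in WT (SD, n = 3 each), with a log2 difference of -0.26 ± 0.22 (SE; limma adjusted p = 0.734). Gsn stood above 99.8% of all genes in the table.

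**Figure D2:**
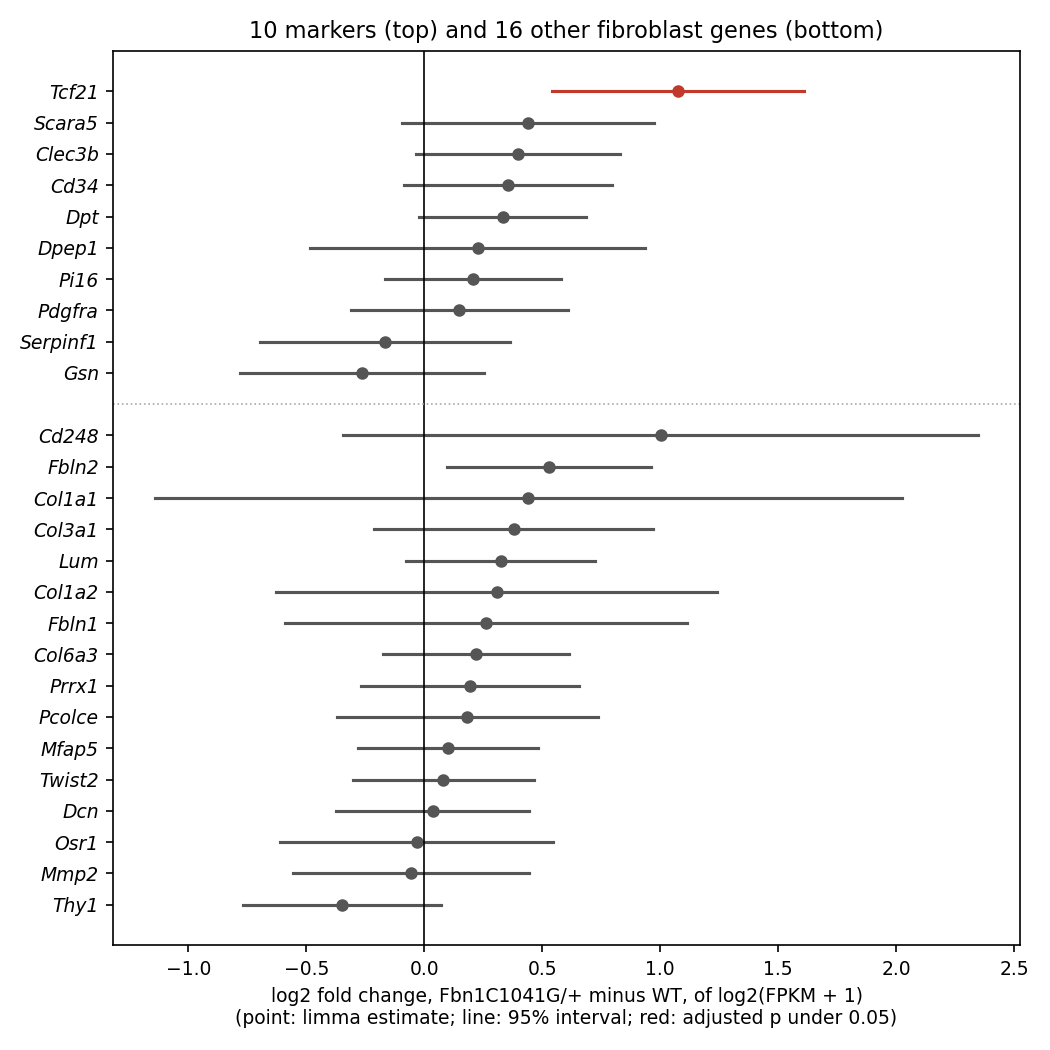
Log2 fold change of log2(FPKM + 1), Fbn1C1041G/+ minus WT, with its 95% interval, for the 10 markers (top) and 16 other fibroblast genes (bottom). The interval of Tcf21, from 0.54 to 1.61, and that of Fbln2 lie above 0, and Tcf21 is the gene drawn in red because its adjusted p was under 0.05.

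For the 9 markers that did not pass, the 95% intervals bound what these libraries allow. They ran, over the 9 genes, from 0.583-fold at the lowest bound to 1.97-fold at the highest on the scale of FPKM + 1, and each held 1-fold. The adjusted p-values of the 9 were between 0.374 and 0.862. A change of 2-fold or more in either direction lay outside the interval of each of the 9, while smaller changes were inside some of them.

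FPKM is per length, so levels can be set beside each other. By mean level the order was Gsn, Serpinf1, Clec3b, Dpt, Pi16, Dpep1, Cd34, Scara5, Pdgfra and Tcf21. Gsn was above Serpinf1 in all 6 libraries, and the order Cd34, Scara5, Pdgfra, Tcf21 at the low end also held in all 6, with ranges that were apart in both groups. In the middle of the order, neighbours from Clec3b to Cd34 overlapped in both groups, and Dpep1 exceeded Cd34 in 3 of 6 libraries. Serpinf1 was above Clec3b in 5 of 6 libraries. The receptor Pdgfra, often used to sort fibroblasts, was thus among the lowest of the 10 by level.

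A ratio of 2 markers within a library does not depend on how libraries are scaled to each other. FPKM of Gsn over that of Dpt was 9.99, 9.11 and 6.31 in Fbn1C1041G/+ replicates 1 to 3, against 12.4, 10.8 and 14.8 in WT replicates 1 to 3. All mutant ratios lay below all WT ratios. Serpinf1 over Dpt was 1.09 to 1.59 in Fbn1C1041G/+ and 1.55 to 2.34 in WT, which overlapped. Pi16 over Dpt was 0.884 to 0.966 in Fbn1C1041G/+ libraries and 0.846 to 1.17 in WT libraries, and Clec3b over Dpt overlapped as well. Tcf21 over Pdgfra was 0.392 to 0.773 in Fbn1C1041G/+ and 0.156 to 0.411 in WT, so that WT replicate 2 reached the mutant range. Tcf21 over Dpt was 0.0406 to 0.0671 in Fbn1C1041G/+ and 0.0225 to 0.0337 in WT, with no overlap. These ratios were chosen after the values were seen and carry no test.

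**Figure D3:**
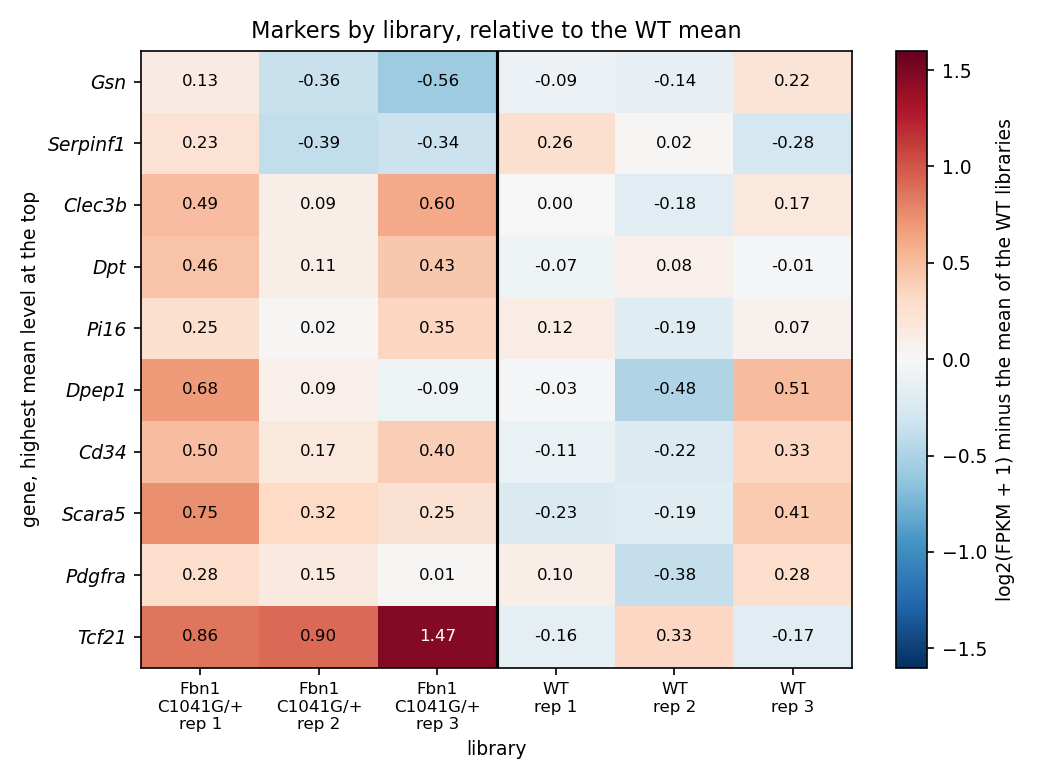
log2(FPKM + 1) of each marker in each library minus the mean of the WT libraries, with the value in each cell. The Tcf21 row is the only one above 0.8 in all 3 mutant libraries, Gsn and Serpinf1 are below 0 in mutant replicates 2 and 3, and mutant replicate 1 is above 0 for all 10 markers.

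Single libraries moved many markers together. Fbn1C1041G/+ replicate 1 had the highest value of its group for 7 markers and replicate 3 for the other 3, while replicate 2 was the highest for 0 and the lowest for 5. In WT, replicate 3 was highest for 6 markers and replicate 2 lowest for 6. The median of the 10 markers relative to the WT mean, on the log2(FPKM + 1) scale, was 0.48, 0.10 and 0.30 in Fbn1C1041G/+ replicates 1 to 3, against -0.05, -0.18 and 0.20 in WT replicates 1 to 3. WT replicate 3 lay between mutant replicates 2 and 3, so the groups overlapped. Without WT replicate 3, the library of lowest weight, the median log2 difference of the 10 markers was 0.40. Scara5 then differed by 0.65 (limma adjusted p = 0.112), Cd34 by 0.52 (limma adjusted p = 0.134) and Clec3b by 0.48 (limma adjusted p = 0.262). Without Fbn1C1041G/+ replicate 1, the other library of low weight, Scara5 differed by 0.29, Cd34 by 0.28 and Clec3b by 0.35. With any library left out, the log2 difference was 0.29 to 0.65 for Scara5, 0.25 to 0.52 for Cd34, 0.29 to 0.55 for Clec3b, 0.27 to 0.44 for Dpt and 0.11 to 0.30 for Pi16. It was -0.37 to -0.036 for Serpinf1, nearest to 0 without WT replicate 1, and -0.46 to -0.11 for Gsn, nearest to 0 without Fbn1C1041G/+ replicate 3. None of these 7 markers passed the test in any of these fits. Fbn1C1041G/+ replicate 1 and WT replicate 3 were also the libraries with the highest sums of fat cell markers, 1958 and 3118 FPKM, against 1030 to 1177 FPKM in the other mutant libraries and 815 to 1150 FPKM in the other WT libraries. The part of perivascular fat in the marker levels was not tested.

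The markers differed in how alike they were across libraries. Likeness was taken as the root mean square difference of log2(FPKM + 1) values, each gene centred on its mean over the 6 libraries. Clec3b and Cd34 were the closest pair at 0.118, followed by Pi16 and Clec3b at 0.129, and Scara5 and Cd34 at 0.140. Gsn and Serpinf1 were 0.271 apart. Tcf21 was far from all, with Dpt its nearest at 0.435. Tested genes outside the markers were then ranked, leaving out genes without a symbol and predicted genes (symbols of Gm with digits or ending in Rik). Those nearest to the mean profile of the 10 markers were Rps27l at 0.0375, Rpl31-ps12 at 0.0406, Rpl23a at 0.0447, Sp140 at 0.0450 and Rps15a at 0.0512. Of these, Rpl31-ps12 is a pseudogene whose reads may be shared with its parent gene, and Rps27l, Rpl23a and Rps15a belong to ribosomal protein families with many copies, so these values are uncertain. Each of the 10 markers lay farther from their mean profile, from 0.101 for Cd34 to 0.523 for Tcf21.

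Other genes of fibroblasts were set beside the markers. Of 16 further pan-fibroblast genes, 0 passed the test in limma, and 1 had an unadjusted p under 0.05. Their median log2 difference was 0.21. Dcn, which encodes the small proteoglycan decorin, had 1021 ± 109 FPKM in Fbn1C1041G/+ and 999.5 ± 155.5 FPKM in WT (SD, n = 3 each), with a log2 difference of 0.04 that turned to -0.023 under quantile normalization. The highest difference in the list was that of Cd248, endosialin, at 1.003 (limma adjusted p = 0.532) but 0.40 without WT replicate 3, and the lowest was that of Thy1, at -0.35 (limma adjusted p = 0.462). The groups did not overlap for Fbln2, with mutant values above, nor for Thy1, with mutant values below. Over all tested genes, 6.85% had all mutant values above WT and 13.1% had all below. The summed level of the 16 genes was 2165 to 2845 FPKM in Fbn1C1041G/+ and 2144 to 2645 FPKM in WT libraries. Relative to Dcn, Dpt was 0.112 to 0.142 in Fbn1C1041G/+ and 0.0843 to 0.117 in WT libraries, which overlapped. Gsn over Dcn was 0.895 to 1.21 in Fbn1C1041G/+ and 1.25 to 1.29 in WT libraries, with no overlap.

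Of 10 genes that go with Pi16 in progenitor-like fibroblasts, 0 passed the test in limma and the median log2 difference was 0.36. An unadjusted p under 0.05 was found for 2, Dpp4 and Wnt2, and both averaged under 1 FPKM in WT, so they were tested only through their higher mutant values and the count supports nothing. Dpp4 is a surface peptidase. It had 2.08, 1.43 and 3.29 FPKM in Fbn1C1041G/+ replicates 1 to 3, against 0.52, 0.47 and 0.83 FPKM in WT replicates 1 to 3. All mutant libraries lay above WT, at low levels, with a log2 difference of 0.99 (limma adjusted p = 0.0639). Without Fbn1C1041G/+ replicate 2 the adjusted p was 0.0367. The lowest difference in this list was that of Sema3c, a semaphorin, at -0.27 (limma adjusted p = 0.677). Of 9 genes that go with Col15a1, the mark of another resting kind of fibroblast, 0 passed the test, 2 had an unadjusted p under 0.05, and the median was 0.22. Col15a1 itself differed by 0.37 (limma adjusted p = 0.794), turning to -0.057 without WT replicate 3. The chemokine gene Cxcl12 differed by 0.68 (limma adjusted p = 0.169) and Apod by -0.64 (limma adjusted p = 0.488), the extremes of that list. Without Fbn1C1041G/+ replicate 1 Apod differed by -1.04 (limma adjusted p = 0.0295).

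Of 11 genes of activated fibroblasts, 1 passed the test, 4 had an unadjusted p under 0.05, 3 had all mutant values above WT, and the median log2 difference was 0.45. Over all tested genes, 6.85% had all mutant values above WT. Of the 4 at an unadjusted p under 0.05 in limma, Runx1 averaged 0.747 FPKM in WT and was tested only through its higher mutant values. Runx1 was also 1 of the 3 with all mutant values above WT. Ltbp2, a latent TGF-beta binding protein family member, had 23.9 ± 6.46 FPKM in Fbn1C1041G/+ and 11.4 ± 2.04 FPKM in WT (SD, n = 3 each). Its log2 difference was 0.98 (limma adjusted p = 0.0499), and without any single library the adjusted p was 0.0814 to 0.133. With all libraries the limma adjusted p was 0.0503 with robust moderation, 0.0522 without a trend, 0.0555 with quantile and 0.0627 with median-ratio scaling. It was 0.0587 with a filter at 5 FPKM, 0.0757 with no filter and 0.0931 with the replicate block. Pseudocounts of 0.1 and 0.01, sample weights and GC correction kept it under 0.05. Postn, periostin, differed by 0.30 (limma adjusted p = 0.785), turning to -0.012 without Fbn1C1041G/+ replicate 3. Cthrc1, named with it above as a gene of activation, averaged 3.58 FPKM in Fbn1C1041G/+ and 1.17 FPKM in WT, with overlapping groups and a log2 difference of 0.98 (limma adjusted p = 0.254). Spp1, osteopontin, had the highest difference of the list at 1.73 (limma adjusted p = 0.0621, and 0.0464 and 0.0218 without Fbn1C1041G/+ replicates 1 and 2). It had 43.9, 11.8 and 19.5 FPKM in Fbn1C1041G/+ replicates 1 to 3, where macrophage markers summed to 799, 331 and 541 FPKM and Postn had 316, 483 and 755 FPKM. In WT replicates 1 to 3, Spp1 had 6.01, 5.40 and 6.16 FPKM and the macrophage markers summed to 191, 236 and 281 FPKM. The part of macrophages in the Spp1 level was not tested. The lowest difference was that of Sfrp1 at 0.06, which turned to -0.13 without Fbn1C1041G/+ replicate 3.

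**Figure D4:**
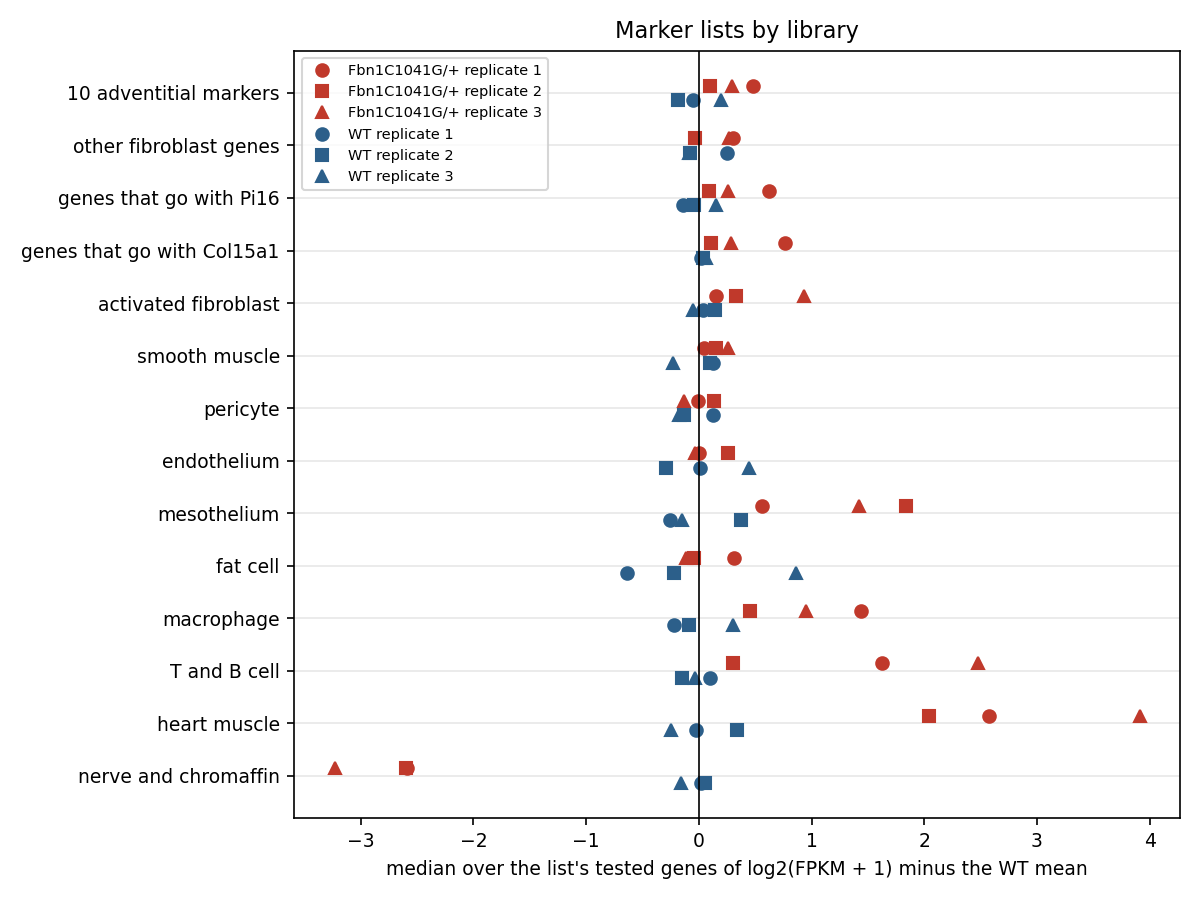
Median over each list's tested genes of log2(FPKM + 1) minus the WT mean, for each library (red, Fbn1C1041G/+; blue, WT; shapes, replicates). The 10 markers lie between -0.18 and 0.48 in all libraries, while the heart muscle list lies above 2 and the nerve and chromaffin list below -2 in all 3 mutant libraries.

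Lists of other cells of the aorta and its surroundings give the levels against which the markers can be read. Of 6 smooth muscle markers, 0 passed, and their sum was 9877 to 12055 FPKM in Fbn1C1041G/+ and 9159 to 10729 FPKM in WT libraries, with Myh11 differing by 0.13. Counts were also 0 for pericytes, endothelium and fat cells, each with 0 genes at an unadjusted p under 0.05 in limma, and the first genes of these lists, Rgs5, Pecam1 and Adipoq, differed by -0.16, -0.22 and 0.04. Pericyte markers summed to 537 to 904 FPKM in Fbn1C1041G/+ and 676 to 829 FPKM in WT libraries. Of the mesothelium list 4 of 6 genes could be tested and 0 passed, and the median log2 difference was 1.31. Msln, the first of the list, had the lowest difference at 0.42. Upk3b averaged 3.56 FPKM in Fbn1C1041G/+ and 0.45 FPKM in WT, and Upk1b 3.45 FPKM in Fbn1C1041G/+ and 0.30 FPKM in WT, with all mutant values above WT. These 2 genes, named after their values were seen, were those with an unadjusted p under 0.05, and they met the filter only through the mutant libraries. No gene of these lists was listed at 0 in any library.

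Outside fibroblasts, calls fell on macrophage, heart muscle and nerve genes. Of 6 macrophage markers, Lyz2 was higher, by 1.29 (limma adjusted p = 0.0433), and the first of the list, Adgre1, differed by 0.93 (limma adjusted p = 0.0559, and 0.0228 without Fbn1C1041G/+ replicate 2 or 0.0470 without WT replicate 3). The macrophage sum was 331 to 799 FPKM in Fbn1C1041G/+ and 191 to 281 FPKM in WT libraries. Of 6 T and B cell markers 0 passed and 5 had an unadjusted p under 0.05, but 3 of those 5 averaged under 1 FPKM in WT and were tested only through the mutant libraries. Cd3e, 1 of the 3, differed by 1.14 (limma adjusted p = 0.205, and 0.0176 without Fbn1C1041G/+ replicate 2). Their sum was 10.8 to 63.9 FPKM in Fbn1C1041G/+ and 4.30 to 8.31 FPKM in WT libraries. Of the 6 heart muscle markers, 5 were higher, with log2 differences of 3.54 for Myh6, 3.55 for Tnni3, 2.72 for Tnnt2, 1.28 for Actn2 and 2.23 for Mybpc3. Of these 5, Myh6 and Mybpc3 averaged under 1 FPKM in WT and were tested only through the mutant libraries. The pseudocount of 1 holds such differences down, and Mybpc3 differed by 4.74 at a pseudocount of 0.1. All 5 nerve and chromaffin genes described were lower, with log2 differences of -2.94 for Th, -2.92 for Dbh, -1.74 for Chga, -2.13 for Chgb and -3.19 for Slc18a1. Their sum was 98.5 to 196 FPKM in Fbn1C1041G/+ and 1041 to 1189 FPKM in WT libraries. The call on Actn2 was lost whichever library was left out, with limma adjusted p-values up to 0.183. That on Lyz2 was lost without each library but Fbn1C1041G/+ replicate 2, with adjusted p-values up to 0.171. The limma adjusted p of Myh6 was 0.0554 without Fbn1C1041G/+ replicate 1. That of Chga was 0.0625 and 0.0554 without Fbn1C1041G/+ replicates 1 and 3, and 0.0553 without WT replicate 2. The part of these cells in the marker levels was not tested.

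In the GENCODE annotation of mouse, exons of Pdgfra, Pi16 and Cd34 overlap with other transcripts. Reads of Cd34 and its opposite-strand neighbour Gm16897, which had 0.31 to 0.55 FPKM over the 6 libraries, could not be separated without knowledge of strand. Tcf21 and the other 6 markers have no such overlap.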

How the data were processed

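Poly(A) RNA of aortic tissue was measured in 3 Fbn1C1041G/+ and 3 WT samples, grouped by the genotype in the labels. The authors deposited FPKM values per gene, per the file headers, with 2 decimals. Build mm9 is listed per the submitters' processing notes. Aligner, quantifier and annotation version: not given in the sources used here. Symbols came from a RefSeq table of GRCm38.p6, which matched 21059 genes and left 58 unmatched. As the builds differ, no coordinates are given. At most 1.83% of values were identical between any 2 libraries.

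Values were taken to log2(FPKM + 1), with a pseudocount of 1. Of 21117 genes, the 13438 averaging 1 FPKM or more in the 6 libraries were tested with limma 3.58.1 in R 4.3.3 (lmFit, eBayes with a trend, 2-sided, Benjamini-Hochberg adjustment, threshold 0.05). Fold changes are Fbn1C1041G/+ minus WT. Depth was estimated from the steps between low values, of which 65.7% to 70.7% lay within 0.2 of a whole fragment, so whole reads were not recovered and no count model was used. GC content came from GENCODE transcripts.

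The members and gene lists were chosen with earlier results of these data known. Named genes were all 10 members, the first and every called gene of each list, the largest rise and fall of each fibroblast list, and the 5 genes with the nearest profile. Predicted genes and genes without a symbol were left out of the search for nearest profiles. Some genes and lists that were chosen are not reported here. Alternatives were pseudocounts of 0.1 and 0.01, no filter or a filter at 5 FPKM, quantile and median-ratio scaling, other limma moderation, sample weights, a replicate block, GC correction (loess span 0.3), a threshold of 0.1, and each library left out. Python 3.11.15 and matplotlib 3.10.9 were used for the figures.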

Additional observations from a re-analysis of the deposited data

How the results depend on the processing

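Of the 10 markers, 1 was called, but 0 were called with no filter on low values, with a filter at 5 FPKM, where Tcf21 was not tested, or with the replicate block. With each library left out the count was 0 to 1. Over all genes 752 were called, against 382 with a filter at 5 FPKM, 1296 with sample weights and 426 to 850 with each library left out. The replicate block gave 698 calls over all genes and an adjusted p of 0.0600 for Tcf21. Same-numbered libraries deviated with correlations of 0.255, -0.0242 and 0.0968 for replicates 1 to 3. Fbn1C1041G/+ replicates 1 and 3 correlated best with the WT library of their own number, and replicate 2 with WT replicate 3, at 0.0969. The labels name no pairing, so the main fit used none, and whether the numbers pair the samples is not known. The count of other fibroblast genes called was 0 under every alternative run. The median log2 difference was 0.18 to 0.40 for the markers and 0.094 to 0.33 for the other fibroblast genes with each library left out, and 0.31 and 0.060 with sample weights. Calls were also gained. With the replicate block the adjusted p was 0.0475 for Dpp4, 0.0330 for Spp1 and 0.0499 for Adgre1, with sample weights 0.0229, 0.0216 and 0.0192, and with GC correction 0.0439 for Dpp4 and 0.0346 for Adgre1. Cd248 differed by 0.44 with sample weights. Mybpc3 differed by 4.74 and 6.16 at pseudocounts of 0.1 and 0.01.

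Signs turned under quantile normalization for Dcn, to -0.023, and for Adipoq, to -0.026, and with sample weights for Rgs5, to 0.035. With each library left out, log2 differences ran from -0.039 to 0.29 for Pdgfra, -0.013 to 0.48 for Dpep1, -0.050 to 0.16 for Dcn, -0.057 to 0.59 for Col15a1, -0.012 to 0.62 for Postn, -0.13 to 0.17 for Sfrp1, -0.0027 to 0.33 for Myh11, -0.41 to 0.039 for Rgs5, -0.40 to 0.0047 for Pecam1, -0.24 to 0.95 for Msln and -0.27 to 0.46 for Adipoq. The cause of these moves was not tested. The filter at 5 FPKM tests fewer genes. Depth limits low genes such as Tcf21 most, and the intervals above cover the spread between these 6 libraries only.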
